A study of Danio rerio with 12 samples.

Results

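A set of 136 zebrafish genes had a lower RNA level after tail amputation in each of 3 replicate experiments, in cells sorted for a macrophage label. They were chosen from 20214 genes that averaged at least 10 reads over the 12 samples, out of 31962 annotated genes with a row in the count files, by one rule: the log2 CPM (read counts scaled to library size) of the amputated sample lay more than 1 below that of the unamputated sample of the same replicate, in replicates 1, 2 and 3. The values of the Amp and Control samples therefore selected the genes, and their difference between these groups is a description. The Amp+Beclo and Beclo samples entered the choice only through the minimum of 10 reads on average and the scaling, which used all 12 samples. A scarce gene could thus qualify through its reads in these groups.

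All samples came from Tg(mpeg1.4:mCherry-F) larvae at 3 days post fertilization (dpf), in which a macrophage promoter drives a red fluorescent protein. There were 4 groups of 3 samples each. Amp larvae had part of the tail removed and received the vehicle, 0.05% DMSO. Control larvae received the same vehicle and were not amputated. Amp+Beclo larvae were amputated and received 25 μM beclomethasone, a synthetic glucocorticoid, and Beclo larvae received beclomethasone without amputation. Treatment began 2 h before amputation and continued after it. Each sample was a pool of 100 to 150 larvae, dissociated at 4 h post amputation (hpa) with actinomycin D present to stop transcription. Red cells were then sorted and their RNA was amplified before sequencing, so a level is that of red cells from whole larvae and not only of those at the wound.

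Macrophages are phagocytes that clear debris, take up and recycle iron, and respond to damage through receptors on their surface. They depend on the cytokine Csf1, which acts on a receptor tyrosine kinase. Toll-like receptors detect microbial products and damaged cells. Scavenger receptors take up modified proteins, and ferroportin returns iron from digested red cells to the circulation. Glucocorticoids bind a nuclear receptor that represses many inflammatory genes and induces others.

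Between 9488569 and 18865019 reads per sample fell on genes, and 23152 to 26070 genes had at least 1 read. The label of the cells was checked against defining genes. The 3 genes named MPEG1 summed to 1444, 1596 and 232 CPM in Amp, 1799, 2648 and 647 CPM in Control, 1248, 520 and 378 CPM in Amp+Beclo, and 1507, 1255 and 783 CPM in Beclo. The 33 measured genes of a macrophage list summed to 23135, 38978 and 14498 CPM in Amp, against 24343, 29621 and 9125 CPM in Control. That sum was lower in Amp in replicate 1 and higher in replicates 2 and 3. MPEG1, csf1ra and irf8 were instead lower in all 3. For irf8 the levels were 64.5, 65.5 and 44.3 CPM in Amp, against 73.5, 82.3 and 48.4 CPM in Control. Directions were mixed for marco, mfap4 and SPI1. The list sum was 31672, 15489 and 10489 CPM in Amp+Beclo, against 32811, 20618 and 20852 CPM in Beclo. With the drug, the list sum, MPEG1 and irf8 were lower after amputation in all 3 replicates, whereas SPI1 was higher in all 3. Directions were mixed there for csf1ra, marco and mfap4. The part of macrophage RNA in the members' levels was not tested. Genes of other cell types were present as well: krt4, an epidermal keratin, ranged over the samples from 4877 to 21429 CPM and col1a1a, a collagen of fibroblasts and bone, from 619 to 12335 CPM. The 17 measured genes of a muscle list summed to 46040, 67525 and 143044 CPM in Amp, against 24396, 18658 and 72309 CPM in Control. Muscle RNA was thus higher in Amp in each replicate of the contrast that chose the members. The muscle sum was 26896, 57701 and 84204 CPM in Amp+Beclo, against 41042, 58303 and 52741 CPM in Beclo. With the drug it was thus lower after amputation in replicates 1 and 2 and higher in replicate 3. The muscle sum exceeded the macrophage list sum in all samples but Control 2 and Amp+Beclo 1. The part of muscle RNA in the members' levels was not tested. Reads that fell outside genes made up 10.1, 6.55 and 4.72% in Amp, 12.6, 10.5 and 9.57% in Control, 10.7, 11.5 and 11.8% in Amp+Beclo, and 7.68, 11.6 and 9.51% in Beclo. In such mixed samples a smaller number of cells of one type and less RNA per cell cannot be told apart.

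The members differed widely in abundance. In Control their mean level ran from 0.768 to 620 CPM, with a median of 6.57 CPM, against a median of 11.2 CPM over all genes; CPM is not corrected for gene length. Of the 136 members, 12 exceeded 50 CPM, 46 lay between 10 and 50 CPM and 78 were under 10 CPM. The mean read count over the 12 samples was under 20 for 34 members, and 16 members had an Amp sample with 0 reads. Only 56 members had at least 10 reads in all 3 Amp samples, so the size of the difference is uncertain for the less abundant ones. A gene symbol was found for 116 members, and 20 are known here by their Ensembl identifier alone.

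The rule was met far more easily in some replicates than in others. Of all genes, 744 were more than 1 lower on the log2 scale in Amp 1 than in Control 1, which is 3.68% of the genes. In replicate 2 there were 3764 such genes (18.6%), and in replicate 3 there were 4822 (23.9%). The 3 conditions together were met by 0.673% of the genes, which are the members, while 117 genes (0.579%) were more than 1 higher in every replicate. For replicates 1 to 3 the median member difference was -1.26, -1.88 and -1.73, against 0.00, -0.09 and -0.21 over all genes. Replicate 1 gave the smallest difference in 90 members. The 3 Amp values lay below all 3 Control values in 50 members (36.8%, where 4.14% of all genes did so), and Amp 1 was above the lowest Control sample in 74 members. In the edgeR test 81 members were lower in Amp at an adjusted p below 0.05 and a fold change above 2, as were 1.32% of all genes; the rule used this contrast, and nothing is read from that count.

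At the edge of the rule, the genes differed little from those just left out. The highest of the 3 replicate differences was -1.001 for si:ch211-217n8.6, -1.002 for egf and -1.005 for VAT1L, the last members taken in. For CBR1, TOM1L2 and NEURL4, the first genes left out, it was -0.9998, -0.9989 and -0.9974.

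Summed over the members, expression was 1927, 569 and 747 CPM in Amp, against 4625, 2241 and 2398 CPM in Control. It was 2608, 2621 and 1949 CPM in Amp+Beclo, against 2014, 3190 and 2713 CPM in Beclo. The sums of Amp and Control did not overlap, whereas those of Amp+Beclo and Beclo did. Control 1 stood above every other sample, being the highest of the 12 samples for 74 members, while Amp 2 was the lowest for 74 and Amp 3 for 50. Among the Beclo samples, replicate 1 was the lowest for 91 members (66.9%), against 34.5% of all genes. The samples with the lowest share of reads outside genes, Amp 3, Amp 2 and Beclo 1, were also the samples with the lowest mean log2 level of the members relative to each gene's own mean (-1.42, -1.83 and -0.23), and Control 1 was the highest in both (1.26). The part of this share in the members' levels was not tested.

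**Figure D1:**
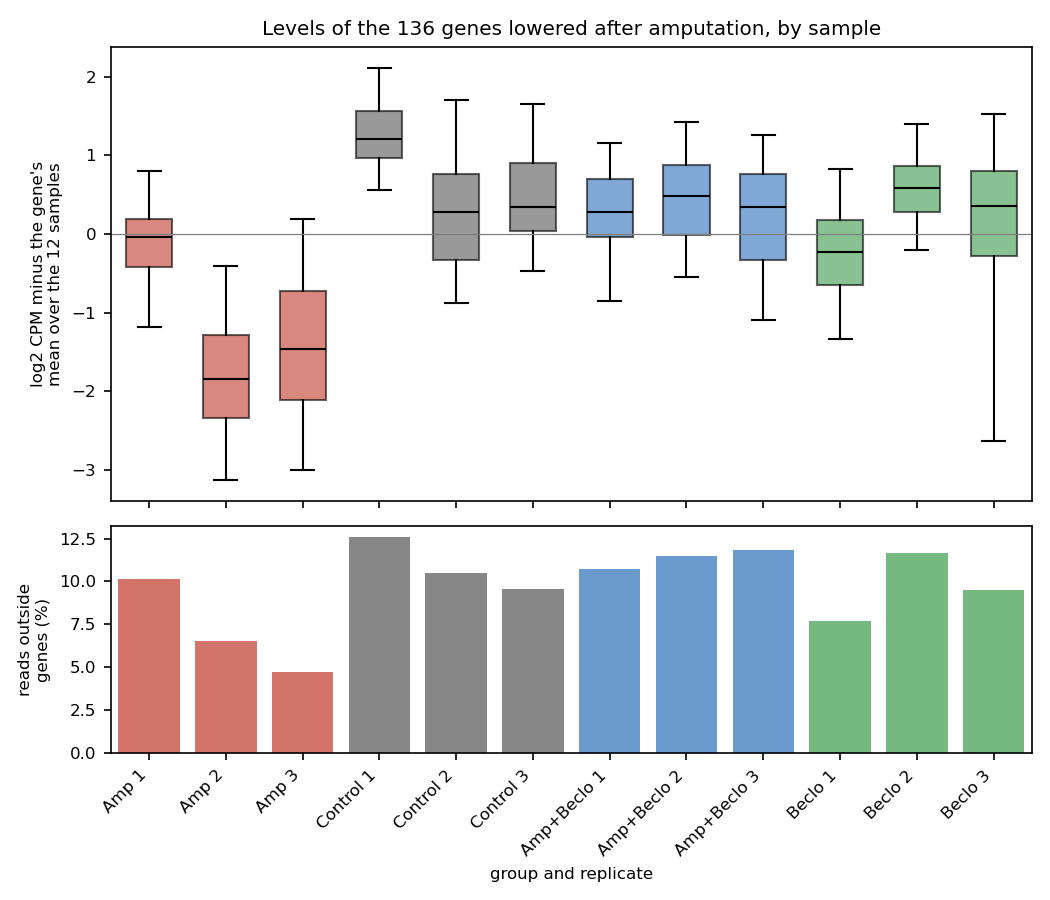
Upper panel: log2 CPM of the 136 members minus each gene's mean over the 12 samples, by group and replicate (box, 25th to 75th percentile; line, median; whiskers, 5th to 95th percentile). Lower panel: percentage of reads outside genes in the same samples. Amp 2 and Amp 3 are lowest in both panels and Control 1 is highest in both.

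The member with the highest CPM in Control was SLC40A1, which encodes ferroportin, the iron exporter of macrophages and gut cells. Its level was 366, 65.6 and 196 CPM in Amp, against 959, 391.7 and 510.1 CPM in Control (mean Control 620.3 ± 299, SD, n = 3), and all Amp samples were below all Control samples. With beclomethasone it was 641, 433 and 231 CPM in Amp+Beclo, against 658, 721 and 731 CPM in Beclo. These groups did not overlap either, yet the difference in replicate 1 was only -0.04 on the log2 scale, and the edgeR log2 fold change was -0.77, SE 0.30 (adjusted p = 0.528).

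Receptor genes were among the members. Zebrafish have a pair of genes for the Csf1 receptor, and csf1rb was a member. It measured 117, 23.5 and 16.5 CPM in Amp, against 258, 131 and 104 CPM in Control. In Amp+Beclo it measured 147, 111 and 88.4 CPM, against 72.0, 189 and 128 CPM in Beclo, and these samples overlapped (mean log2 difference -0.09 ± 0.97, SD, n = 3). The other copy, csf1ra, is no member: it measured 284, 180 and 107 CPM in Amp, against 389, 387 and 185 CPM in Control, a log2 difference of -0.46, -1.10 and -0.79 in replicates 1 to 3. Both copies were thus below Control in each replicate, and csf1ra missed the threshold in 2 of them. Among the 33 measured genes of the macrophage list csf1rb was the only member, where 0.673% of all genes were members. In the edgeR test 3 of the 33 were lower and 0 higher in Amp, against 1.32 and 1.14% of all genes. The rule used this contrast, and such counts on lists can include members. Nothing is read from them, here or for the lists below.

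Stabilin 1, a scavenger receptor of macrophages and vessel walls encoded by stab1, was at 117, 57.7 and 32.9 CPM in Amp, against 250.4, 119 and 110.2 CPM in Control, and Amp 1 exceeded Control 3. In Amp+Beclo it reached 258, 249 and 161 CPM, against 179, 256 and 192 CPM in Beclo. The Amp+Beclo samples exceeded Control in each replicate. On the list of complement and scavenger receptors 3 of 19 tested genes were lower in Amp by the edgeR test and 0 were higher. Over all genes 1.32 and 1.14% were so called. Of the 13 measured endothelial genes stab1 was the only member, where 0.673% of all genes were members.

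The receptor for double-stranded RNA, tlr3, measured 5.56, 0.696 and 0.245 CPM in Amp, against 14.2, 9.10 and 4.16 CPM in Control. With beclomethasone it measured 5.88, 4.42 and 2.09 CPM in Amp+Beclo, against 3.302, 7.04 and 3.09 CPM in Beclo. Only Amp 2 and Amp 3 were below 1 CPM, and the drug-treated groups overlapped. TLR2, whose product binds bacterial lipoproteins, was scarce: 18, 0 and 0 reads in Amp, against 69, 16 and 8 reads in Control. In Amp+Beclo it had 14, 2 and 1 reads, against 12, 18 and 21 reads in Beclo, so it was also at 2 and 1 reads in Amp+Beclo 2 and 3. Of 30 tested genes on the list of Toll-like receptors and innate sensors, 6 were lower and 1 was higher in Amp by the edgeR test, against 1.32 and 1.14% of all genes.

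The integrin chain itgam.1, a counterpart of the mammalian complement receptor subunit CD11b, was at 23.5, 11.01 and 9.67 CPM in Amp, against 55.3, 27.3 and 35.1 CPM in Control, with no overlap. It was at 17.96, 30.1 and 24.1 CPM in Amp+Beclo, against 9.27, 29.3 and 38.3 CPM in Beclo, where the lowest sample was Beclo 1. Of 33 integrin genes tested, 3 were lower in Amp and 0 higher, against 1.32 and 1.14% of all genes.

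Some other receptors are named here after their values were seen. The ATP-gated channel gene p2rx7, which in mammalian macrophages links extracellular ATP to cytokine release, was at 26.5, 4.06 and 1.101 CPM in Amp, against 53.8, 24.6 and 11.2 CPM in Control. It was at 26.4, 8.65 and 5.55 CPM in Amp+Beclo, against 12.4, 17.5 and 17.1 CPM in Beclo, and Amp 1 exceeded Control 2 and Control 3. The prostaglandin E2 receptor gene PTGER3 had 23, 4 and 5 reads in Amp, against 63, 27 and 22 reads in Control, and 23, 20 and 24 reads in Amp+Beclo, against 13, 15 and 17 reads in Beclo.

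**Figure D2:**
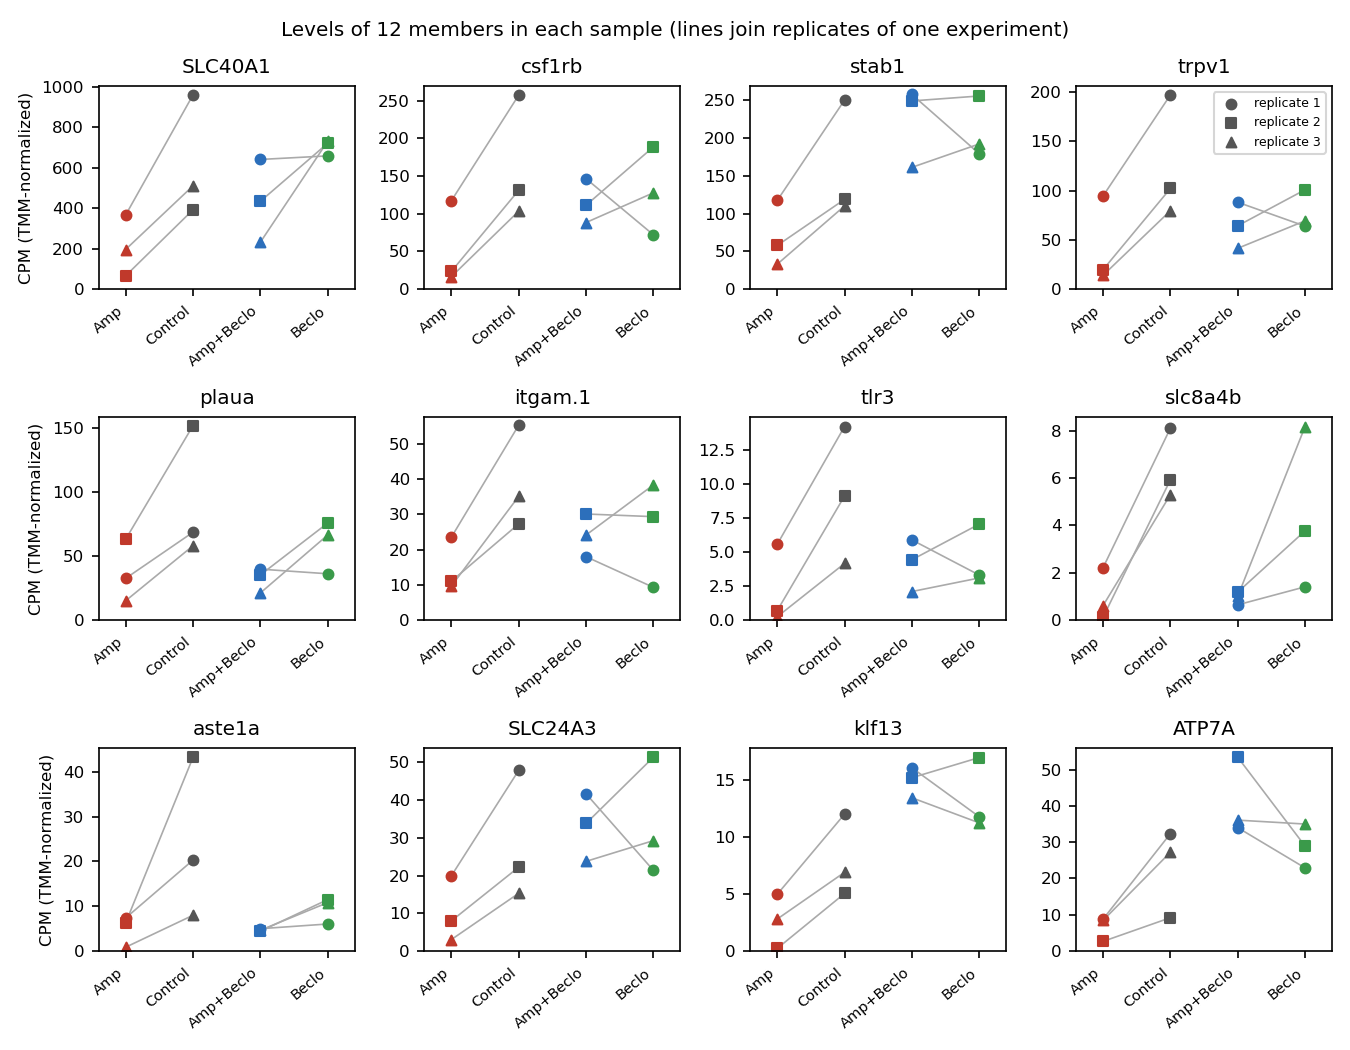
CPM (linear axis from 0) of 12 members in the Amp, Control, Amp+Beclo and Beclo samples. Symbols are the replicates and grey lines join the amputated and unamputated sample of a replicate; every line rises towards Control in the vehicle pairs, while in the beclomethasone pairs lines run both ways except in SLC40A1, slc8a4b and aste1a, where all 3 rise towards Beclo, and ATP7A, where all 3 fall.

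Ion channel and transporter genes were also among the members. Of 383 solute carrier genes measured, 5 were members, where 0.673% of all genes were: SLC40A1, slc8a4b, SLC24A3, SLC17A8 and SLC46A3. Of 381 solute carriers tested in Amp against Control, 11 were lower and 9 were higher, against 1.32 and 1.14% of all genes. The sodium/calcium exchanger gene slc8a4b measured 2.21, 0.116 and 0.612 CPM in Amp, against 8.11, 5.92 and 5.30 CPM in Control. With the drug it measured 0.644, 1.18 and 1.002 CPM in Amp+Beclo, against 1.41, 3.77 and 8.18 CPM in Beclo. It was the symbol-bearing member that lay lowest in Amp+Beclo relative to Beclo among those that qualified for naming, with replicate differences of -0.96, -1.55 and -2.84 and an edgeR log2 fold change of -1.94, SE 0.52 (adjusted p = 0.528). Its Amp+Beclo samples, with 8, 12 and 11 reads, were below all Beclo samples, with 20, 45 and 90 reads.

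SLC24A3, a potassium-dependent sodium/calcium exchanger gene, was at 19.96, 8.0001 and 3.06 CPM in Amp, against 47.9, 22.2 and 15.3 CPM in Control. It was at 41.6, 33.8 and 23.8 CPM in Amp+Beclo, against 21.4, 51.4 and 29.3 CPM in Beclo. These drug-treated samples overlapped, and each Amp+Beclo sample was above all Amp samples. Amp+Beclo samples all lay above the Amp samples in 56 members (41.2%, against 8.88% of all genes). The rule chose genes low in Amp, so nothing is read from this. SLC17A8, a vesicular glutamate transporter gene, had at most 34 reads in any sample, and SLC46A3 (ENSDARG00000079933), a lysosomal transporter gene, had 20, 3 and 2 reads in Amp, against 53, 22 and 24 reads in Control. Its 0 reads in Beclo 3 set a replicate difference of 4.27, against 0.18 and -0.64 in replicates 1 and 2, so its mean is not interpreted.

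The heat-gated cation channel gene trpv1 measured 94.6, 19.7 and 13.95 CPM in Amp, against 197, 102 and 79.6 CPM in Control. It measured 88.2, 64.3 and 41.4 CPM in Amp+Beclo, against 63.9, 101 and 69.3 CPM in Beclo. Amp 1 lay between Control 3 and Control 2, and the drug-treated samples overlapped. Of 226 ion channel genes tested, 2 were lower and 0 higher in Amp, against 1.32 and 1.14% of all genes. On that list trpv1 was the only member, where 0.673% of all genes were members. TTYH3 (ENSDARG00000034473), of the tweety family of anion channels, was at 107, 43.6 and 36.0 CPM in Amp, against 229, 117 and 100.3 CPM in Control. A second gene of that symbol, ENSDARG00000007678, was at 74.9, 88.1 and 49.3 CPM in Amp, against 65.1, 58.5 and 83.8 CPM in Control, so only one of the copies met the rule. The ABC transporter gene abch1 measured 8.11, 1.62 and 2.33 CPM in Amp, against 28.2, 11.6 and 12.9 CPM in Control, and 7.17, 6.10 and 6.28 CPM in Amp+Beclo, against 11.7, 16.3 and 8.996 CPM in Beclo. Neither pair of groups overlapped, and its edgeR log2 fold change with the drug was -0.85, SE 0.31 (adjusted p = 0.528).

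ATP7A, a copper transporter gene named after its values were seen, measured 8.79, 2.67 and 8.44 CPM in Amp, against 32.3, 9.19 and 27.2 CPM in Control. It measured 33.99, 53.4 and 36.1 CPM in Amp+Beclo, against 22.9, 28.9 and 34.98 CPM in Beclo. The 3 replicate differences between Amp and Control were even (-1.75 ± 0.10, SD, n = 3), and each Amp+Beclo sample exceeded every Amp and every Control sample.

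Regulators of the cytoskeleton and a myosin gene were also present. DOCK4 (ENSDARG00000024874), an activator of Rac and Rap GTPases, measured 57.4, 22.6 and 12.6 CPM in Amp, against 142, 53.7 and 65.8 CPM in Control, and 62.9, 88.1 and 54.5 CPM in Amp+Beclo, against 31.9, 95.3 and 47.1 CPM in Beclo. The activator of Rac and Cdc42 encoded by arhgef6 was at 37.2, 11.7 and 11.1 CPM in Amp, against 94.3, 33.6 and 42.6 CPM in Control. It was at 32.5, 67.6 and 41.7 CPM in Amp+Beclo, against 32.1, 18.02 and 36.3 CPM in Beclo, and Beclo 2 was the low sample there. The myosin heavy chain gene myhb measured 109.5, 26.2 and 33.9 CPM in Amp, against 247, 71.6 and 81.6 CPM in Control, and 43.1, 108 and 125 CPM in Amp+Beclo, against 45.04, 117 and 116 CPM in Beclo. Its drug-treated pairs were nearly equal in each replicate (mean log2 difference -0.02 ± 0.11, SD, n = 3). The muscle list, which does not include myhb, held no member, where 0.673% of all genes were members. Of its 17 genes tested, 1 was higher and 0 lower in Amp, against 1.14 and 1.32% of all genes. The list therefore does not show the cell source of myhb. SPECC1 was at 44.9, 4.75 and 10.8 CPM in Amp, against 95.1, 47.0 and 30.6 CPM in Control, and its largest difference was in replicate 2.

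The named members also included the protease genes plaua and pcsk5a. The urokinase gene plaua, whose product activates plasminogen outside the cell, measured 32.5, 63.1 and 15.1 CPM in Amp, against 68.6, 152 and 58.0 CPM in Control. It measured 39.8, 35.2 and 21.1 CPM in Amp+Beclo, against 36.2, 75.8 and 66.4 CPM in Beclo. Control 2 and Amp 2 were the highest samples of their groups, so Amp 2 exceeded Control 3. In the drug-treated pairs it was lower in replicates 2 and 3 and higher in replicate 1, with an edgeR log2 fold change of -0.84, SE 0.33 (adjusted p = 0.528). The proprotein convertase gene pcsk5a had the lowest mean difference among the genes qualifying by that criterion, -3.57 ± 1.35 (SD, n = 3). It had 0, 0 and 10 reads in Amp, against 91, 24 and 72 reads in Control, and 7, 22 and 27 reads in Amp+Beclo, against 14, 68 and 0 reads in Beclo. The reads were few in all groups, and a fold change for such a gene depends on the prior count of 2.

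Signalling enzymes included MAP3K11, a kinase that acts above JNK. It measured 3.51, 0.116 and 0.857 CPM in Amp, against 10.03, 2.49 and 6.35 CPM in Control. In Amp+Beclo it measured 5.64, 8.26 and 6.28 CPM, against 3.16, 5.36 and 2.45 CPM in Beclo, and here every amputated sample was the higher one (0.90 ± 0.36, SD, n = 3). ATM, the kinase that senses double-strand DNA breaks, was at 9.01, 5.80 and 10.04 CPM in Amp, against 29.5, 11.8 and 24.3 CPM in Control. It was at 18.4, 23.1 and 18.03 CPM in Amp+Beclo, against 9.27, 15.5 and 9.90 CPM in Beclo, again with all amputated samples above the unamputated ones (edgeR log2 fold change 0.84, SE 0.23, adjusted p = 0.528). Of 52 DNA repair genes tested, 3 were lower in Amp and 0 were higher, against 1.32 and 1.14% of all genes. The adenylyl cyclase gene ADCY9 was at 6.86, 2.09 and 5.38 CPM in Amp, against 25.4, 5.24 and 16.6 CPM in Control, and at 7.65, 14.2 and 16.1 CPM in Amp+Beclo, against 3.16, 9.89 and 5.63 CPM in Beclo. RPS6KA3 (ENSDARG00000057927), a growth factor-responsive kinase gene that the name pattern for ribosomal proteins also caught, was at 11.3, 5.45 and 3.43 CPM in Amp, against 22.8, 13.99 and 9.45 CPM in Control. None of the genes for ribosomal proteins proper was a member, where 0.673% of all genes were.

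Among regulators of transcription, CHD9, a chromodomain helicase, measured 37.9, 8.0001 and 34.6 CPM in Amp, against 83.7, 27.8 and 73.7 CPM in Control. It measured 50.2, 87.4 and 61.6 CPM in Amp+Beclo, against 32.7, 55.2 and 59.8 CPM in Beclo. Each drug-treated replicate was higher after amputation, by 0.62, 0.66 and 0.04 on the log2 scale, and the samples overlapped. Of the 142 chromatin regulators tested, 4 were lower in Amp and 0 higher, against 1.32 and 1.14% of all genes. The Krüppel-like factor gene klf13 was at 4.99, 0.232 and 2.81 CPM in Amp, against 12.04, 5.07 and 6.93 CPM in Control. It was at 16.1, 15.2 and 13.5 CPM in Amp+Beclo, against 11.8, 17.0 and 11.3 CPM in Beclo. The 6 drug-treated samples lay between 11.3 and 17.0 CPM, above all Amp samples, and their groups overlapped. The Amp samples were low by the rule, so their place below the others is a description. Of 23 immediate-early and KLF factors tested, 1 was lower and 0 higher in Amp, against 1.32 and 1.14% of all genes. No member was on the list of glucocorticoid-responsive genes, of which 16 were measured, or on that of inflammatory mediators. Over all genes 0.673% were members, so none would be likely on lists of this size. Of the 14 inflammatory mediators 7 were higher in Amp, against 1.14% of all genes.

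The remaining named members had varied roles. MAN2A1, a Golgi enzyme that trims N-glycans, was at 7.14, 1.39 and 1.47 CPM in Amp, against 14.7, 5.49 and 6.11 CPM in Control, and at 8.30, 7.87 and 7.10 CPM in Amp+Beclo, against 1.83, 5.53 and 3.91 CPM in Beclo. EPG5, required in mammals for autophagosomes to fuse with lysosomes, was at 4.42, 2.09 and 8.32 CPM in Amp, against 19.3, 6.27 and 19.2 CPM in Control, and at 8.70, 22.4 and 13.7 CPM in Amp+Beclo, against 4.85, 14.8 and 5.18 CPM in Beclo. FAT3 (ENSDARG00000033840), an atypical cadherin, was at 1.25, 0.232 and 2.94 CPM in Amp, against 5.29, 2.66 and 9.53 CPM in Control, and at 4.19, 3.93 and 4.55 CPM in Amp+Beclo, against 0.422, 2.26 and 2.999 CPM in Beclo. Amputated samples were the higher ones in all 3 drug-treated pairs of each of these genes, and the groups overlapped only for EPG5. DOP1B was at 33.0, 8.46 and 14.7 CPM in Amp, against 81.2, 20.8 and 53.4 CPM in Control, and was likewise higher in each drug-treated replicate. The ubiquitin ligase gene HECW2 had no more than 38 reads in any sample, and trim35-4, of the TRIM family, no more than 60.

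Several of the genes with the largest differences were of low abundance. The fibronectin type III domain gene FNDC7 had 1, 6 and 10 reads in Amp, against 177, 62 and 38 reads in Control. The yolk protein gene vtg8 had 28, 1 and 0 reads in Amp, against 90, 42 and 22 reads in Control; vitellogenin genes are near-identical copies, so its reads may belong to another copy. The gene aste1a was at 7.37, 6.26 and 0.857 CPM in Amp, against 20.29, 43.2 and 7.98 CPM in Control, and at 4.99, 4.42 and 4.64 CPM in Amp+Beclo, against 6.04, 11.5 and 10.8 CPM in Beclo. Its Amp+Beclo samples were all below its Beclo samples. Among loci named only by clone, si:dkey-7i4.1 was at 14.6, 0.928 and 0.857 CPM in Amp, against 39.8, 16.9 and 7.82 CPM in Control, and si:dkey-9k7.3 was at 16.8, 1.16 and 1.35 CPM in Amp, against 35.3, 20.26 and 10.9 CPM in Control. For si:ch1073-303l23.1 the counts were 53, 5 and 0 reads in Amp, against 164, 113 and 22 reads in Control. The steroidogenic acute regulatory gene STAR, named after its values were seen, varied widely in every group: it was at 1.53, 1.74 and 8.08 CPM in Amp, against 4.69, 12.1 and 20.7 CPM in Control, and at 0, 19.9 and 0.0911 CPM in Amp+Beclo, against 4.92, 0.0838 and 1.18 CPM in Beclo.

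Another 7 members, each with a Control mean of at least 10 CPM, were picked after their values were seen, to show the range of roles. ACACB, an acetyl-CoA carboxylase that controls fatty acid oxidation, was at 18.4, 3.01 and 11.4 CPM in Amp, against 53.2, 12.96 and 39.3 CPM in Control, and at 25.7, 58.3 and 45.8 CPM in Amp+Beclo, against 18.6, 40.8 and 39.5 CPM in Beclo. Amp 1 exceeded Control 2, and the drug-treated pairs differed by 0.40 ± 0.16 on the log2 scale (SD, n = 3). The formin gene DIAPH2, whose product nucleates actin filaments, was at 21.9, 7.07 and 11.5 CPM in Amp, against 47.4, 18.2 and 25.01 CPM in Control, and at 29.6, 33.0 and 30.6 CPM in Amp+Beclo, against 16.6, 24.3 and 17.0 CPM in Beclo, where no amputated sample was as low as an unamputated one. DSP (ENSDARG00000076673), a desmoplakin gene of cell junctions, was at 15.9, 4.99 and 24.1 CPM in Amp, against 34.3, 11.5 and 66.6 CPM in Control. In that gene replicate 3 was the highest of both groups and Control 2 was below Amp 1 and Amp 3, so the difference is seen only within pairs. No gene of the epidermis list, of which 20 were measured, was a member, where 0.673% of all genes were. The summed level of that list was 8756, 23077 and 36633 CPM in Amp, against 9677, 8442 and 19929 CPM in Control. It was 10184, 14195 and 19863 CPM in Amp+Beclo, against 15808, 14256 and 24035 CPM in Beclo. The part of these levels in the DSP values was not tested. The pro-apoptotic BH3-only gene bmf2 measured 17.8, 9.51 and 4.77 CPM in Amp, against 36.2, 51.3 and 10.9 CPM in Control, and 15.9, 11.01 and 13.3 CPM in Amp+Beclo, against 11.8, 22.5 and 22.4 CPM in Beclo.

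The nuclear receptor gene rorcb was at 14.7, 3.94 and 7.71 CPM in Amp, against 35.2, 11.6 and 24.8 CPM in Control, and at 12.002, 18.6 and 20.8 CPM in Amp+Beclo, against 7.10, 25.1 and 22.6 CPM in Beclo. The kinase gene wnk3, which acts on ion cotransporters, was at 8.79, 1.51 and 7.22 CPM in Amp, against 22.02, 8.07 and 19.8 CPM in Control, and at 11.6, 16.2 and 12.2 CPM in Amp+Beclo, against 7.80, 11.6 and 7.91 CPM in Beclo. PLCB3, a phospholipase C gene, was at 15.9, 3.71 and 4.77 CPM in Amp, against 44.9, 13.9 and 20.7 CPM in Control, and at 24.9, 38.9 and 24.9 CPM in Amp+Beclo, against 20.6, 50.1 and 21.9 CPM in Beclo. In all 3 genes Amp 2 was the lowest of the 12 samples. The 80 members not described singly, 63 with a symbol and 17 without, had Control means of 0.768 to 40.2 CPM (median 3.85 CPM). Their mean log2 differences ran from -3.76 to -1.08 between Amp and Control. Between Amp+Beclo and Beclo they ran from -1.11 to 1.98, with 46 above and 34 below 0.

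**Figure D3:**
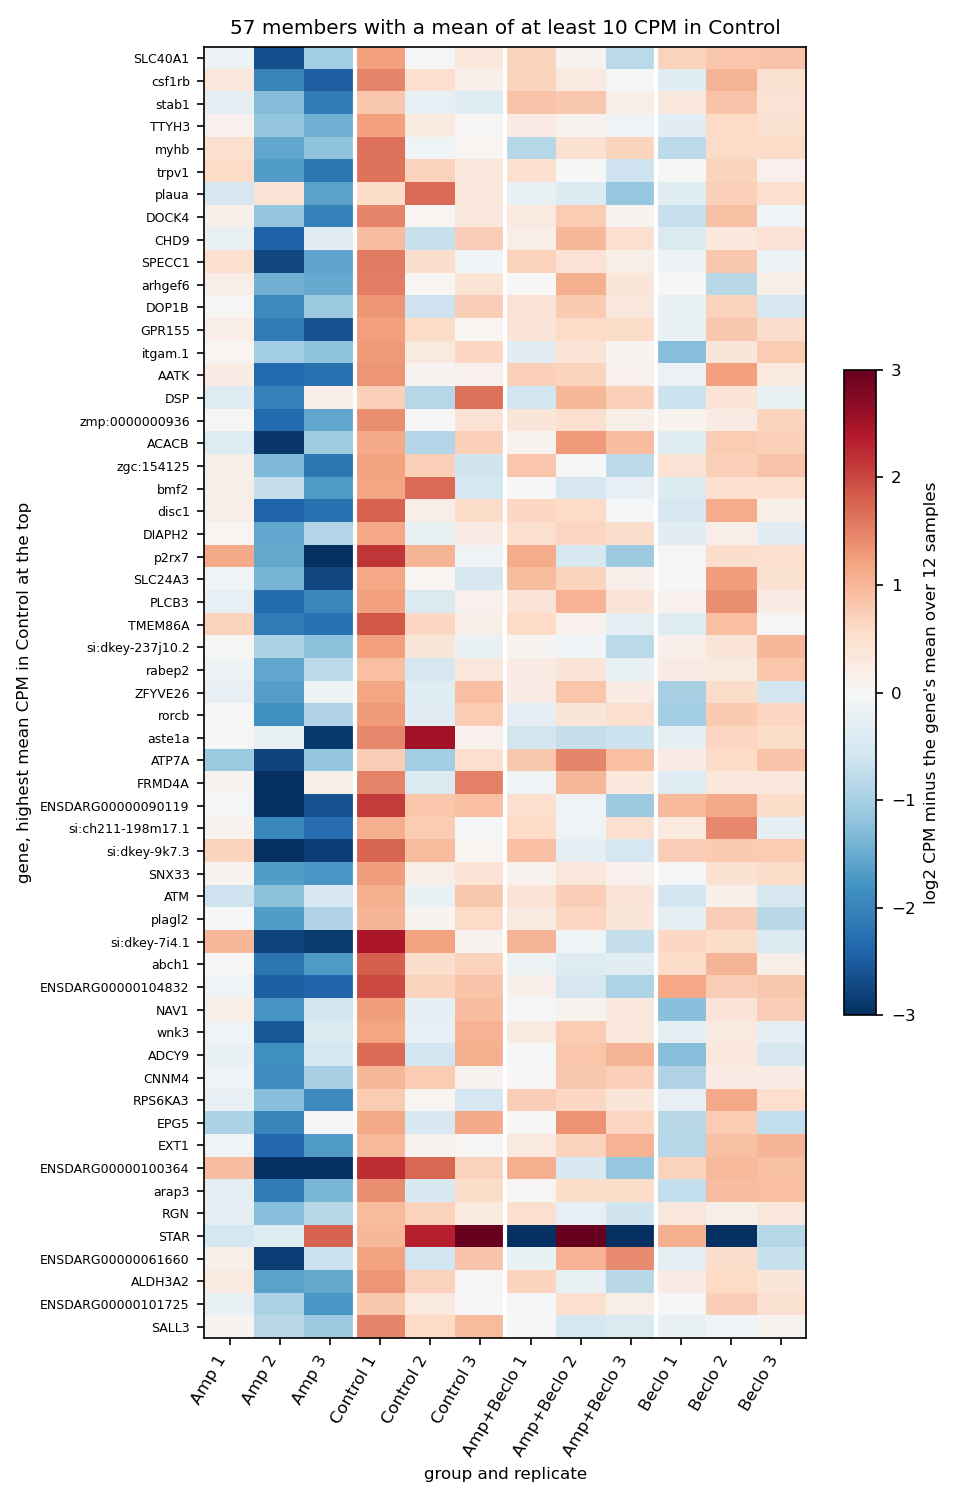
Colour: log2 CPM minus the gene's mean over the 12 samples, for 57 of the 58 members with a mean of at least 10 CPM in Control (rows, highest at the top) in each sample (columns, by group and replicate). Amp 2 and Amp 3 are blue and Control 1 is red for most genes; the Amp+Beclo and Beclo columns hold both colours.

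The comparison of Amp+Beclo with Beclo asked whether the members were also lower after amputation when beclomethasone was present. It shares no sample with the differences that the rule used, though the read minimum and the scaling used all 12 samples. All 136 members were among the 21727 genes tested, and 0 members passed the edgeR test in either direction, where 0% of all genes were called lower and 0.00460% (1 gene) higher. The smallest adjusted p of a member was 0.492. At an unadjusted p below 0.05, 8 members were lower (5.88%, against 3.39% of all genes) and 15 were higher (against 5.90% of all genes). DESeq2 called 0 members and 107 genes in all. The low number of calls over all genes limits what this test can show about the members.

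The replicate differences ran in both directions. Of the members, 11 (8.09%) were below Beclo in Amp+Beclo in all 3 pairs, against 18.5% of all genes. A further 28 (20.6%) were higher in all 3, against 17.4% of all genes, and the other 97 differed in sign between replicates. At a threshold of -1.5 for the rule the share lower was instead above that of all genes: 5 of 15 genes (33.3%) were lower in all 3 pairs, and 33.3% were higher. Leaving out replicates 1, 2 and 3 in turn from both the rule and the count gave 28.0, 9.03 and 14.3% of the genes then chosen lower in the 2 replicates left, against 29.5, 32.6 and 25.5% of all genes. Only 26 members (19.1%) were lower in replicate 1, where 49.2% of all genes were, while 84 (61.8%, against 50.8%) were lower in replicate 2 and 76 (55.9%, against 51.8%) in replicate 3. The member medians were 0.51, -0.23 and -0.17, against 0.01, -0.01 and -0.05 over all genes, and the median of the members' means was 0.10, against 0.01. Replicate 1 thus stood apart from the other two, and Beclo 1 was the Beclo sample with the lowest member levels and the lowest share of reads outside genes. Non-overlapping groups were found for 8 members below Beclo (5.88%, against 4.71% of all genes) and 8 above (5.88%, against 5.66%).

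**Figure D4:**
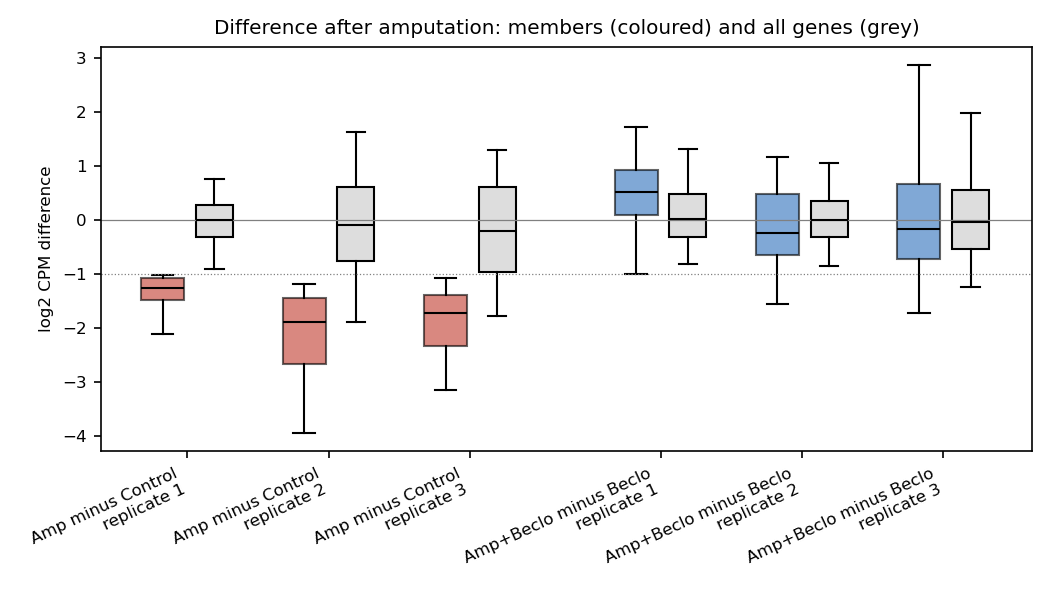
Log2 CPM difference of the 136 members (coloured boxes) and of all 20214 genes (grey boxes) in each replicate, for Amp minus Control and Amp+Beclo minus Beclo (box, 25th to 75th percentile; line, median; whiskers, 5th to 95th percentile; dotted line, the threshold of -1). The members lie below -1 in the vehicle pairs by the rule, and their medians in the beclomethasone pairs are 0.51, -0.23 and -0.17.

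The 11 members lower in each drug-treated replicate included slc8a4b, aste1a, abch1, SLC40A1, si:dkey-237j10.2 and si:dkey-108p14.4. Differences were -1.79 ± 0.96 for slc8a4b, -0.93 ± 0.58 for aste1a and -0.58 ± 0.39 for si:dkey-108p14.4 (mean log2 difference, SD, n = 3). In each of these 6 genes all Amp+Beclo samples were below all Beclo samples. One further gene, ENSDARG00000104832, which has no symbol and was singled out after its values were seen, was more than 1 lower in every replicate of both comparisons. It measured 6.41, 1.16 and 1.22 CPM in Amp, against 28.3, 11.2 and 12.9 CPM in Control, and 7.81, 4.92 and 3.64 CPM in Amp+Beclo, against 15.9, 11.8 and 12.4 CPM in Beclo. It was the only member to do so (0.735% of the members, against 0.0643% of all genes), and its adjusted p was the smallest of the members in the edgeR test.

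Among the 28 members higher in each drug-treated replicate, FAT3, MAN2A1, ADCY9, EPG5, MAP3K11 and ATM had the largest means among those with a symbol and a mean of at least 30 reads. The mean log2 differences ran from 0.80 for ATM to 1.41 for FAT3. The growth factor gene egf, named after its values were seen, was the only member more than 1 higher in all 3 (0.735%, against 0.490% of all genes). It had 15, 1 and 4 reads in Amp, against 41, 18 and 14 reads in Control, and 39, 27 and 22 reads in Amp+Beclo, against 6, 11 and 0 reads in Beclo. The Beclo 3 sample had 0 reads for 11 members, egf among them, which enlarges the replicate 3 difference of these genes.

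**Figure D5:**
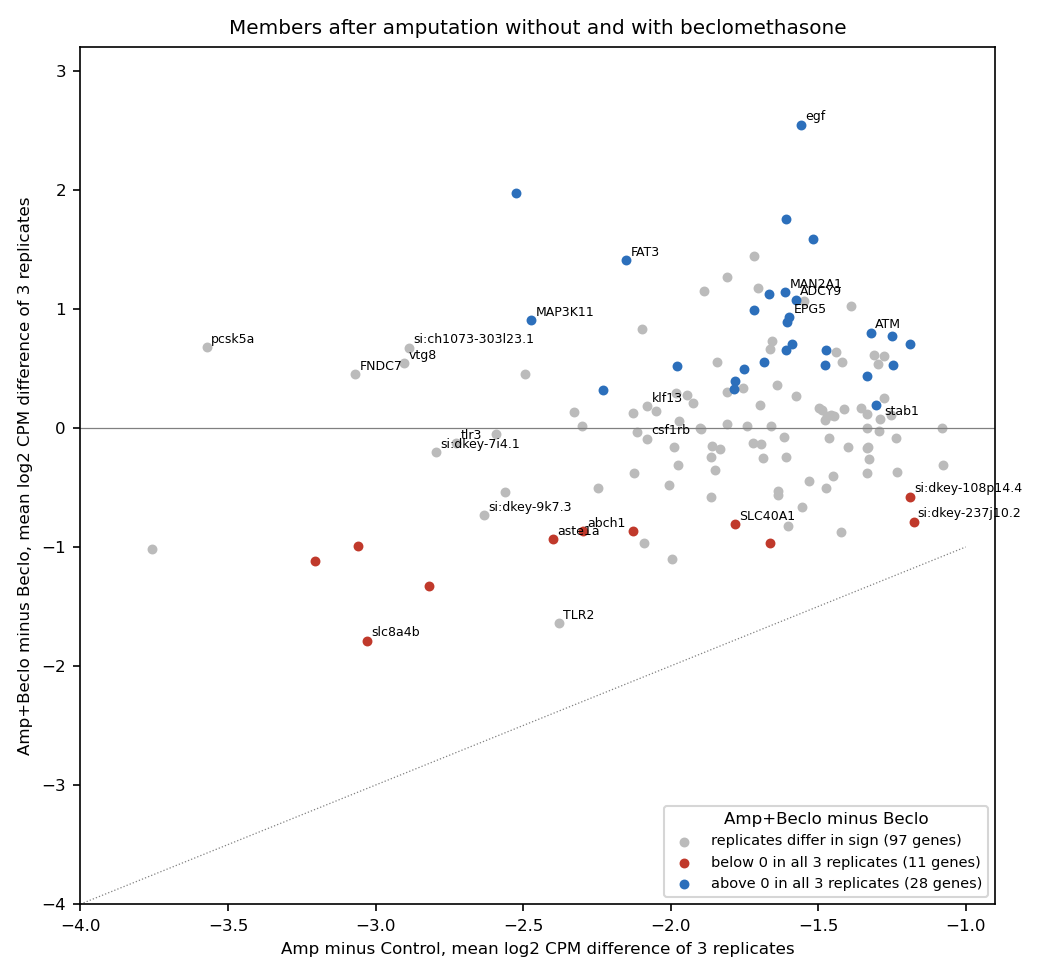
Each point is a member: mean log2 CPM difference of Amp minus Control (horizontal, all below -1 by the rule) and of Amp+Beclo minus Beclo (vertical), means of 3 replicates. Red points (11) were below 0 and blue points (28) above 0 in all 3 drug-treated replicates, grey points (97) differed in sign, and the dotted line marks equal differences.

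The remaining comparisons share samples with the rule and are given side by side as descriptions. In Beclo against Control the member medians were -1.53, 0.40 and 0.02 in replicates 1 to 3, against -0.04, 0.01 and 0.04 over all genes. The edgeR test called 0 members, with 0.00452% of all genes called lower and 0.167% higher; at an unadjusted p below 0.05, 16 members were lower (1.97% of all genes) and 2 higher (3.27%), and DESeq2 called 2 members, both higher, among 241 of 22127 genes called in either direction. In Amp+Beclo against Control the member medians were -0.97, 0.21 and -0.21, against 0.00, 0.02 and -0.04 over all genes, and the edgeR test called 1 member lower, slc8a4b (adjusted p = 0.0328), where 0.0450% of all genes were called lower and 0.374% higher. At an unadjusted p below 0.05 in that test, 34 members were lower (25.0%, against 2.90% of all genes) and 2 higher (1.47%, against 4.32%). In all 3 replicates 10 members were more than 1 lower than Control (7.35%, against 0.272% of all genes). Without replicates 1, 2 and 3 in turn the number of members called, all lower, was 4, 15 and 0, where 246 of 20891, 664 of 21489 and 35 of 21223 genes were called in either direction. The Control samples that chose the members are in both comparisons, and Control 1 is the highest sample for most of them.

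In Amp+Beclo against Amp the member medians were 0.33, 2.35 and 1.67, against 0.02, 0.16 and 0.19 over all genes. Of the 134 members tested, edgeR called 5 higher, where 0.258% of all genes were called higher. Among them were klf13 (adjusted p = 0.0154 in the edgeR test), ATP7A (0.00543), and the unnamed ENSDARG00000026246 (8.88e-04) and ENSDARG00000059899 (0.00543). ENSDARG00000026246 measured 4.14, 0.116 and 0.245 CPM in Amp, against 11.7, 6.70 and 3.26 CPM in Control, and 17.9, 10.7 and 5.65 CPM in Amp+Beclo, against 20.8, 25.6 and 16.5 CPM in Beclo. ENSDARG00000059899 measured 0.907, 0.116 and 0 CPM in Amp, against 3.61, 1.12 and 0.652 CPM in Control, and 6.69, 2.75 and 3.37 CPM in Amp+Beclo, against 7.59, 9.30 and 5.63 CPM in Beclo. Both were above Control in each replicate in Beclo as well as in Amp+Beclo. The Amp samples were selected to be low for these genes, so this comparison is no separate evidence, and without replicates 1, 2 and 3 in turn it called 0, 1 and 0 members, the 1 being lower, among 1, 9 and 13 genes called in all.

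As a description, genes were also chosen by the same threshold on 2 replicates and read in the third. Chosen on replicates 2 and 3, 1687 genes qualified, and in replicate 1 their median difference was -0.29, with 74.6% below 0 (49.9% of all genes) and 8.06% below -1 (3.68%). Chosen on replicates 1 and 3, 288 genes had a median of -0.94 in replicate 2, and 47.2% were below -1 (18.6%). Chosen on replicates 1 and 2, 252 genes had a median of -1.11 in replicate 3, and 54.0% were below -1 (23.9%). In each case the genes below -1 in the replicate not used were the members themselves. The share below -1 therefore only restates the size of each set. Most of the chosen genes were also below 0 in that replicate, the members among them by the rule. The shares below 0 were 74.6, 78.8 and 82.5% in replicates 1, 2 and 3, against 49.9, 53.6 and 56.2% of all genes. These sets came from the same Amp and Control samples as the rule, and each holds the members along with other genes. The shares therefore describe the larger sets, and nothing is read from them about the members.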

How the data were processed

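RNA-seq read counts of sorted red cells were taken from 12 samples in 4 groups of 3. The authors deposited raw counts per Ensembl gene, made from 50-nucleotide reads that, per the labels and the submitters' processing notes, involved TopHat2 2.1.0, genome build GRCz10 and DESeq 1.26.0; the counting program is not given in the sources used here. The 5 summary rows of each file (reads outside genes and ambiguous reads among them) were kept out of library sizes and tests. Reads outside genes made up 4.72 to 12.6% and ambiguous reads 1.64 to 2.46%. Without knowledge of strand, overlapping and antisense genes cannot be told apart.

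Counts were scaled by TMM in edgeR 4.0.16 (R 4.3.3), and log2 CPM was computed with a prior count of 2 for genes with a mean of at least 10 reads. Pairs of groups were tested with edgeR's quasi-likelihood test (glmQLFTest) with the replicate as a block, for genes with at least 30 reads over the 6 samples, and called at a Benjamini-Hochberg adjusted p below 0.05 and a fold change above 2. DESeq2 1.42.0, other scalings, filters, thresholds and prior counts, the fit without the block and the omission of each replicate were alternatives. The scripts were tested on simulated data. Each sample was a pool of larvae, and nothing beyond the replicate number states that replicates were separate clutches. With the block, p-values measure how much the difference within a replicate varied over these replicates. Without the block they measure the spread between these samples.

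The study describes replicate experiments analysed as pairs, so the numbers were used as pairs. Deviations from the group means of same-numbered samples correlated by 0.50, 0.54 and 0.68 for Amp with Control, and by 0.34, -0.01 and 0.09 for Amp+Beclo with Beclo.

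The members and all gene lists were chosen with earlier results of these data known. Named genes are members with a symbol that were the 12 highest in Control, the 10 lowest in Amp relative to Control with at least 20 reads in each Control sample, up to 6 lowest and 6 highest in Amp+Beclo relative to Beclo with one sign in all replicates and a mean of at least 30 reads, those on a list, and those at the threshold; other names were chosen after their values were seen. Symbols were matched by Ensembl identifier (18712 of 20214 genes) and are spelled as in the name table. Where a symbol belongs to several genes, the identifier is given. Sequences, promoter motifs and gene features were not analysed here, and 1 gene and 1 gene list are not reported here.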

Additional observations from a re-analysis of the deposited data

Results flagged for a closer look

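In 28 members (20.6%, against 17.4% of all genes) the amputated sample was above the unamputated one in all 3 beclomethasone-treated replicates, whereas by the rule it was below it in all 3 vehicle-treated replicates. The 2 shares are near each other, so the count is not read as a trait of the members. Some differences were near 0 in a replicate: 0.04 for CHD9 and ATP7A in replicate 3, and 0.02 for arhgef6 in replicate 1. The vehicle direction was fixed by the choice of genes, and the difference between the vehicle-treated and drug-treated pairs was not tested. Among the named members, the mean log2 difference of Amp+Beclo minus Beclo was 0.44 for CHD9, 0.71 for arhgef6, 0.52 for DOP1B and 0.80 for ATM. It was 0.93 for EPG5, 0.90 for MAP3K11, 1.08 for ADCY9 and 1.14 for MAN2A1. For FAT3, HECW2 and egf it was 1.41, 1.76 and 2.55, and HECW2 and egf had 0 reads in Beclo 3. Of the members picked after their values were seen, it was 0.40 for ACACB, 0.70 for DIAPH2, 0.53 for DSP, 0.55 for wnk3, 0.50 for ATP7A and 0.65 for PTGER3. None of these genes passed the adjusted threshold in the edgeR test of Amp+Beclo against Beclo.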

How the results depend on the processing

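The count of members called in Amp+Beclo against Beclo was 0 in every alternative run. With no replicate block, DESeq2 and RLE size factors, 0, 107 and 0 genes were called in all. With no filter, a minimum of 10 reads per sample and a joint fit of the 12 samples it was 18, 14 and 1. Leaving out replicates 1, 2 and 3 gave 0, 0 and 38 genes. Where 0 or 1 genes were called in all, the count of 0 says little about the members. In each alternative run the median Amp+Beclo minus Beclo difference of the genes then chosen was above 0. It ran from 0.01 at a threshold of -1.5 to 0.38 without replicate 2, against 0.01 over all genes in both. Without scaling beyond library size it was 0.30, against 0.14 over all genes. For the 136 members the medians were 0.51, -0.23 and -0.17 in replicates 1 to 3. The number of members changed with the rule: 277 without scaling beyond library size, 360 at a threshold of -0.8, 15 at -1.5, and 252 to 1687 with a replicate left out. With no replicate block, that is with group means more than 1 apart and no overlap between the groups in place of pairs, 319 genes qualified, and 50 of them were among the 136. The percentage lower than Beclo in all replicates was 33.3% (5 of 15) at -1.5, where 33.3% were higher in all replicates and 18.5% of all genes were lower, and 9.03 to 28.0% with a replicate left out. In Beclo against Control, DESeq2 called 2 members (241 of 22127 genes in all) and the fit with no filter 1 (138 of 27607). In Amp+Beclo against Control the main count was 1 (93 of 22202 genes in all). No replicate block gave 0 (29 of 22202), DESeq2 7 (370 of 22202) and RLE size factors 2 (141 of 22202). No filter gave 7 (261 of 27728), a minimum of 10 reads per sample 0 (86 of 17848) and the joint fit 0 (79 of 22202). Leaving out a replicate gave 0 (35 of 21223) to 15 (664 of 21489). In Amp+Beclo against Amp the main count was 5 (65 of 21742 genes in all). DESeq2 gave 7 (91 of 21742), RLE size factors 5 (61 of 21742) and no filter 5 (56 of 27612). No replicate block gave 0 (2 of 21742), a minimum of 10 reads per sample 2 (21 of 15812) and the joint fit 1 (26 of 21742). Leaving out a replicate gave 0 to 1, with 1 to 13 genes called in all. The causes were not tested. Without TMM the median of all genes moved by -0.32 in Amp minus Control and by 0.13 in Amp+Beclo minus Beclo; relative to all genes the members then lay at -1.51, against -1.57 with TMM. Low counts limit single genes: 34 members averaged under 20 reads.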

Other observations

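Other copies of members that share a symbol were measured as well. For RPS6KA3 the second gene, ENSDARG00000035556, was at 202, 214 and 87.5 CPM in Amp, against 161, 268 and 115 CPM in Control, and for EXT1 the second gene, ENSDARG00000103155, was at 18.8, 14.3 and 14.4 CPM in Amp, against 19.4, 24.0 and 18.9 CPM in Control. For CAPN5 the second gene, ENSDARG00000103317, had log2 differences of -1.40, -0.77 and -1.46 and missed the rule in replicate 2 alone, and for DOCK4 the second gene, ENSDARG00000076213, had -0.78, -1.23 and -1.35 and missed it in replicate 1 alone. No gene of these pairs other than the member met the rule, and the counting of reads between copies was not examined.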
